A study of Mus musculus with 8 samples.

Results

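Cohesin is the ring-shaped complex that holds sister chromatids together, and 9 mouse genes for its subunits were followed here in female germ cells. They were chosen by name: Rec8, Rad21l, Stag3 and Smc1b encode subunits used mainly in meiosis, and Smc1a, Smc3, Rad21, Stag1 and Stag2 encode subunits used in all dividing cells. Of these 9 genes, 7 were found among the 21950 genes counted in the libraries, 3 of the 4 meiotic and 4 of the 5 general ones. Smc1b and Smc1a were not among the counted genes, so only their promoter sequences were searched here.

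The cohesin ring is built from a pair of SMC proteins, SMC1 and SMC3, closed by a kleisin subunit and joined by a STAG protein. General cohesin carries RAD21 as its kleisin and STAG1 or STAG2. In meiosis REC8 or RAD21L takes the place of RAD21, STAG3 that of STAG1 and STAG2, and SMC1β that of SMC1α, while SMC3 is shared by all forms. Meiotic cohesin forms the chromosome axis on which the synaptonemal complex assembles, and cohesin laid down in the fetal oocyte has to hold its chromatids together until ovulation. In the mouse, female primordial germ cells (PGCs) in the gonad begin to enter meiosis shortly after the stage sampled here.

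Bulk RNA-Seq compared PGC-like cells (PGCLCs) made in culture with PGCs taken from embryos, with 4 libraries of each. The d6PGCLC group came from one induced pluripotent stem cell line, BVSC-iPSC, which carries the Blimp1-Venus and Stella-ECFP reporters. These cells were collected at day 8 of the culture, 6 days into PGCLC differentiation from epiblast-like cells, by sorting for both reporters. The E12.5 PGC group was pooled from the gonads of inbred C57BL/6J female fetuses at E12.5, in mid-gestation, by sorting for SSEA1 and integrin β3, both surface markers of germ cells. Each library was a separate pool of cells from an independent experiment. All d6PGCLC libraries came from a single line, and origin, genotype, age and sorting markers differed together between the groups. Their parts in any difference therefore cannot be told apart.

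The libraries held between 7991437 and 12024841 counted reads, so that 3 reads, taken here as the detection floor, amounted to 0.249 to 0.383 CPM (counts scaled to a common library size). Germ cell markers were present in both groups, with a summed level of 3947 to 4553 CPM in d6PGCLC and 4512 to 5046 CPM in E12.5 PGC for 10 genes. Of these, 5 were higher in d6PGCLC, 3 were lower and 2 did not pass. Among all genes at 1 CPM or more, 53.6% were called in either direction at an adjusted p of at most 0.05. The 5 higher genes were Dppa3, Prdm1, Prdm14, Tfap2c and Pou5f1, at log2 fold changes of 0.65 to 1.21. Dppa3 and Prdm1 encode STELLA and BLIMP1, whose reporters were used to sort the d6PGCLC group. The part of that sorting in the levels of Dppa3 and Prdm1 was not tested. The late germ cell genes Ddx4 and Dazl were at 35.5 ± 6.6 and 37.7 ± 23.2 CPM in d6PGCLC (SD, n = 4) and at 760 ± 92.2 and 1262 ± 241 CPM in E12.5 PGC (SD, n = 4), and Dnd1 was the third lower gene. Markers of gonadal somatic cells summed to 2.82 to 8.68 CPM over 11 genes in d6PGCLC, where 8 of them, among them Wt1 and Gata4, did not exceed the floor in any library. In E12.5 PGC the same genes summed to 13.1 to 22.6 CPM, with 1 of 11 at or under the floor. Blood and endothelial markers summed to 19.9 to 34.5 and 14.3 to 24.4 CPM over 6 genes. Markers of the epiblast and somatic lineages summed to 8.13 to 11.2 and 36.1 to 44.1 CPM over 10 genes. The part of these other cell types in the results was not tested. In the E12.5 PGC group, replicate 2 stood apart by the heat shock genes Hspa1a and Hspa1b, at 144 and 181 CPM where no other library of the group exceeded 20.3 and 23.2 CPM, and replicate 4 by 99 reads of Y-linked genes, of which the other 7 libraries had 0. Both heat shock genes also differed between the groups, with Hspa1a at 0.305 to 0.747 CPM in d6PGCLC and 4.42 to 144 CPM in E12.5 PGC, and Hspa1b at 1.45 to 1.79 and 6.41 to 181 CPM, and their part in the results was not tested. The member results are therefore also given without this pair of libraries where that changed them.

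Among the kleisins, Rec8 was higher in d6PGCLC, Rad21 did not pass the test and Rad21l was at the edge of detection. Rec8 (Entrez 56739, chromosome 14, 55618002 to 55625395, plus strand, GRCm38) encodes the kleisin that holds sister chromatids through both meiotic divisions. It was at 101, 84.5, 91.9 and 90.6 CPM in d6PGCLC replicates 1 to 4 and at 76.9, 37.3, 61.9 and 43.5 CPM in E12.5 PGC replicates 1 to 4. Every d6PGCLC library was thus above every E12.5 PGC library, while the spread was wider in E12.5 PGC, at 92 ± 6.91 against 54.9 ± 18 CPM (SD, n = 4). The log2 fold change of d6PGCLC over E12.5 PGC was 0.75 ± 0.16 (SE; 95% interval 0.42 to 1.08), a 1.68-fold higher level, with an adjusted p of 0.000764 by edgeR's quasi-likelihood test. As in any bulk sample, fewer cells with a transcript and less of it per cell cannot be told apart. An exact two-sided permutation test over the libraries gave p = 0.0286, the smallest value that 4 against 4 libraries allow. Without E12.5 PGC replicates 2 and 4, the libraries of the group with the lowest Rec8, the log2 fold change was 0.41 with an adjusted p of 0.0288.

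Rad21l (Entrez 668929, chromosome 2, 151644366 to 151670622, minus strand) encodes the second meiotic kleisin, which appears early in meiotic prophase. It had 0 reads in all 4 d6PGCLC libraries and 3, 2, 2 and 1 reads in E12.5 PGC replicates 1 to 4. Both groups were thus at or under the floor in every library, and no fold change is given. The 8 reads against 0 reached an adjusted p of 0.0299 in the fit over all genes. That call was lost with DESeq2, at an adjusted p of 0.0866, and when any 1 library other than E12.5 PGC replicate 4 was left out, at 0.052 to 0.088. With the replicate number as a block it was 0.105, and without E12.5 PGC replicates 2 and 4 together it was 0.058.

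Rad21 (Entrez 19357, chromosome 15, 51962604 to 51993538, minus strand) encodes the kleisin of mitotic cohesin. It was the most abundant of the members, at 1256, 1202, 1116 and 1251 CPM in d6PGCLC and 1240, 985, 1182 and 1176 CPM in E12.5 PGC. The groups overlapped, and the log2 fold change of 0.07 ± 0.09 (SE; 95% interval -0.11 to 0.25) did not pass the test, with an adjusted p of 0.653. The exact permutation test gave p = 0.4.

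**Figure D1:**
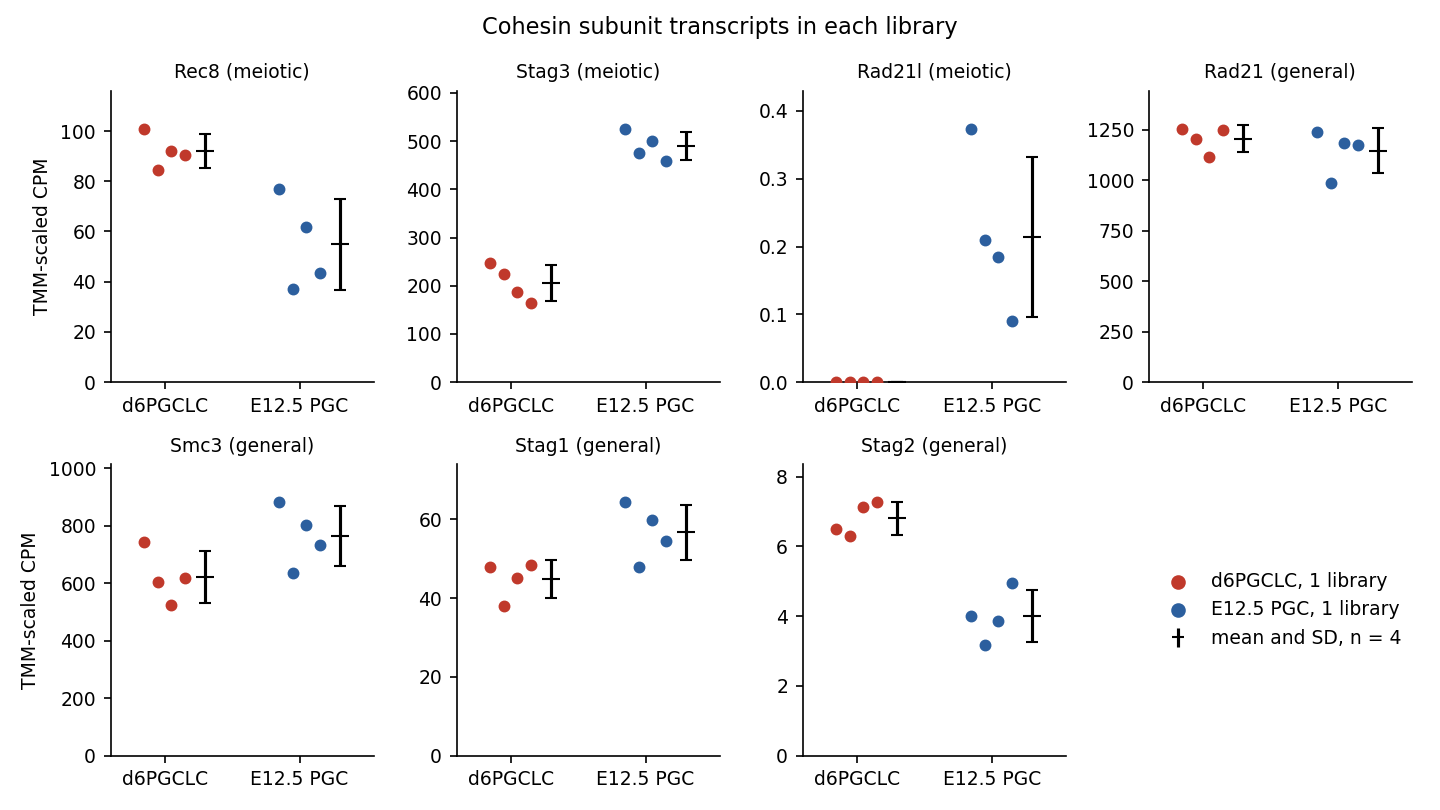
Level of the 7 counted cohesin subunit genes in each library, as CPM with TMM-scaled library sizes (vertical axes, linear, each from 0), with red points for d6PGCLC, blue points for E12.5 PGC and black bars for the mean and SD of 4 libraries. Rec8 and Stag2 lie higher in all d6PGCLC libraries and Stag3 in all E12.5 PGC libraries, while Rad21, Smc3 and Stag1 overlap and Rad21l does not exceed 0.374 CPM.

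Among the STAG subunits, the meiotic Stag3 was lower in d6PGCLC by more than the spread of the libraries, Stag2 was higher, and Stag1 was lower by a small amount. Stag3 (Entrez 50878, chromosome 5, 138272514 to 138312397, plus strand) encodes the STAG protein found in meiotic cohesin. It was at 248, 224, 188 and 165 CPM in d6PGCLC and 526, 475, 501 and 459 CPM in E12.5 PGC, so that the lowest E12.5 PGC library was far above the highest d6PGCLC library. The means were 206 ± 36.8 and 491 ± 29.6 CPM (SD, n = 4), a log2 fold change of -1.25 ± 0.11 (SE; 95% interval -1.47 to -1.03), which is 2.38-fold lower, with an adjusted p of 7.24e-09. The exact permutation test gave p = 0.0286. Stag3 transcripts were therefore far above the floor in d6PGCLC as well, with 7766 reads in the 4 libraries together.

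Stag1 and Stag2 encode the STAG proteins of general cohesin. Stag1 (Entrez 20842, chromosome 9, 100597709 to 100958544, plus strand) was at 48, 38, 45.1 and 48.5 CPM in d6PGCLC and 64.4, 48, 59.9 and 54.4 CPM in E12.5 PGC. The ranges overlapped only between E12.5 PGC replicate 2 and the highest d6PGCLC libraries. The log2 fold change was -0.34 ± 0.12 (SE; 95% interval -0.59 to -0.08) with an adjusted p of 0.038, and the exact permutation test gave p = 0.0857. The call was lost without d6PGCLC replicate 2 or 3 or E12.5 PGC replicate 1, 3 or 4, with log2 fold changes of -0.36 to -0.27 and adjusted p of 0.0627 to 0.135. Without E12.5 PGC replicates 2 and 4 together it was -0.47, with an adjusted p of 0.0191.

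Stag2 (Entrez 20843, chromosome X, 42149297 to 42277186, plus strand) was at 6.51, 6.31, 7.14 and 7.27 CPM in d6PGCLC and 3.99, 3.16, 3.87 and 4.96 CPM in E12.5 PGC. The groups did not overlap, although the values rested on 259 and 159 reads. The log2 fold change was 0.76 ± 0.22 (SE; 95% interval 0.31 to 1.22), with an adjusted p of 0.00887 and p = 0.0286 by the exact permutation test. Since Stag2 is X-linked, the level of the X chromosome is given beside it. The median X-linked gene minus the median autosomal gene was at -0.03 ± 0.05 in d6PGCLC and 0.05 ± 0.04 in E12.5 PGC (log2 deviation from each gene's mean; SD, n = 4). The counted isoforms of Stag1 and Stag2 spanned 1261 and 2256 bp, 20.4% and 36.6% of their longest annotated transcripts, so that reads elsewhere in these genes were not counted.

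The SMC core was represented by Smc3 (Entrez 13006, chromosome 19, 53600396 to 53645831, plus strand), which belongs to mitotic and meiotic cohesin alike. It was at 742, 604, 525 and 618 CPM in d6PGCLC and 882, 635, 802 and 733 CPM in E12.5 PGC, with overlapping ranges. The log2 fold change was -0.29 ± 0.11 (SE; 95% interval -0.52 to -0.07), with an adjusted p of 0.0415 and p = 0.0857 by the exact permutation test. The call was lost without d6PGCLC replicate 2, 3 or 4 or E12.5 PGC replicate 1, 3 or 4, with log2 fold changes of -0.31 to -0.22 and adjusted p of 0.056 to 0.16. It was also lost with the likelihood ratio test, at an adjusted p of 0.0547. Without E12.5 PGC replicates 2 and 4 together the log2 fold change was -0.44, with an adjusted p of 0.00449.

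**Figure D2:**
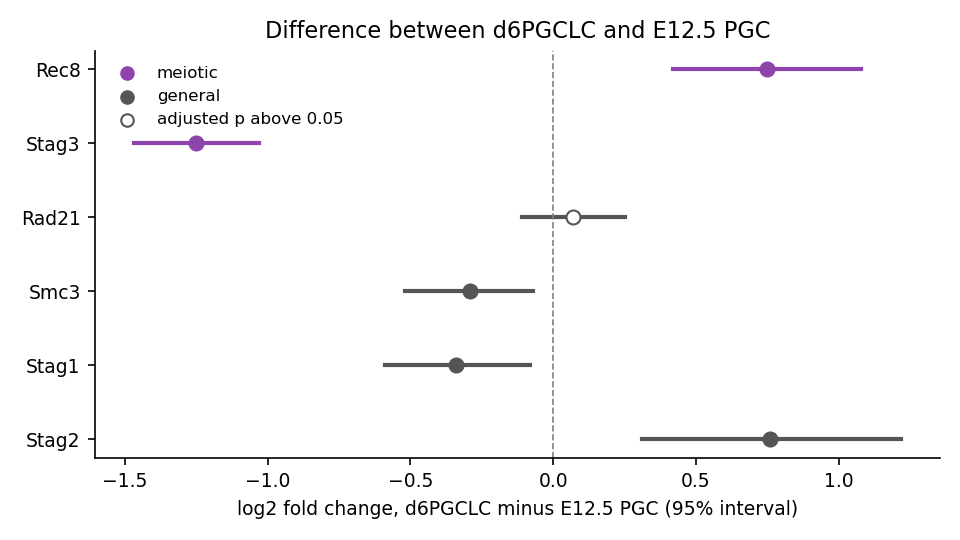
Log2 fold change of d6PGCLC minus E12.5 PGC (horizontal axis) for the 6 members above the floor, with 95% intervals as lines, meiotic subunits in purple, general subunits in grey and an open point where the adjusted p was above 0.05. The meiotic subunits Rec8 and Stag3 lie on opposite sides of 0, at 0.75 and -1.25.

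Of the 7 counted members, 4 were called lower in d6PGCLC (Rad21l, Stag3, Smc3 and Stag1), 2 higher (Rec8 and Stag2) and 1 did not pass. Over all genes tested, 15.4% were called lower and 16.1% higher. Much of the table is hardly expressed, however, and where the mean level was 1 CPM or more, 53.6% of genes were called in either direction, beside 5 of the 6 members above that level. In the same way, 4 of the 7 members did not overlap between the groups against 30.2% of all genes, and of the 6 members above 1 CPM 3 did not overlap against 51.1% of genes above 1 CPM. These counts over 6 or 7 genes were not tested against that background, and nothing is read from them. None of the 6 members above the floor had an absolute log2 fold change of 2 or more, which 6.62% of all genes reached with an adjusted p of at most 0.05. The median log2 fold change was -0.11 over the 6 members above the floor, and 0.01 over all genes whose mean was 1 CPM or more. The meiotic and general subunits did not each move one way in the main fit, since either set held genes called in both directions. For the general set, the lower calls of Smc3 and Stag1 were both lost in some fits with 1 library left out.

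Levels of different subunits were compared per length, as CPM per kilobase of the counted exons. In d6PGCLC, Rad21 was highest at 290 ± 15.6, followed by Smc3 at 104 ± 14.9, Stag3 at 36.9 ± 6.58, Stag1 at 35.6, Rec8 at 32.2, Stag2 at 3.02 and Rad21l at 0 (CPM per kb, SD where given, n = 4). Stag3, Stag1 and Rec8 overlapped with their neighbours in this order and did not differ beyond the spread of the libraries. In E12.5 PGC the order was the same, with Rad21 at 275, Smc3 at 127, Stag3 at 87.8, Stag1 at 44.9, Rec8 at 19.2, Stag2 at 1.77 and Rad21l at 0.0986 CPM per kb, and no neighbours overlapped. Rad21 was thus 8.98 times as high as Rec8 per kb in d6PGCLC and 14.3 times in E12.5 PGC. Stag3 was 1.04 and 1.95 times as high as Stag1. The counted length was 20.4 and 36.6% of the longest annotated transcript for Stag1 and Stag2 and 105 to 131% for the other members. The order and the ratios of CPM per kb therefore rest on the isoforms that were counted.

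The same values gave the share of the meiotic form among the kleisins and among the STAG genes, as a description of these libraries. Rec8 and Rad21l made up 10.5, 9.3, 10.7 and 9.55% of kleisin reads per kb in d6PGCLC replicates 1 to 4 and 8.34, 5.26, 7.12 and 5.13% in E12.5 PGC. All d6PGCLC libraries were above all E12.5 PGC libraries, and Rad21 made up the bulk of kleisin reads in both groups. Stag3 made up 52, 54.9, 46.4 and 41.5% of STAG reads per kb in d6PGCLC and 64.1, 68.3, 64.6 and 64.4% in E12.5 PGC, so that here the E12.5 PGC libraries were all higher. The mean shares were 10 ± 0.705 and 6.46 ± 1.54% for the kleisins and 48.7 ± 5.97 and 65.3 ± 1.98% for STAG (SD, n = 4). Without the division by length, the mean shares of raw reads were 7.1 and 4.52% for the kleisins and 79.6 and 89% for STAG, in the same order between the groups. The widest 95% Wilson interval of a raw share in a single library was 1.99 percentage points to either side, which covers counting error only. The division by length thus moved the STAG shares by more than the groups differed, and these shares rest on the isoforms that were counted.

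**Figure D3:**
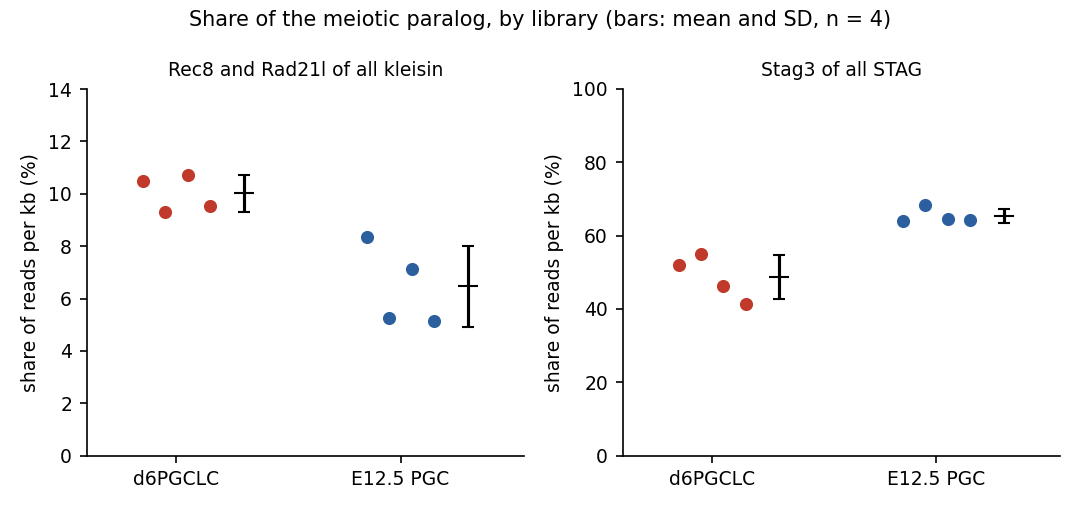
Share of the meiotic form (vertical axes, percent of reads per kb, from 0) among kleisin genes on the left and STAG genes on the right, with 1 point per library, red for d6PGCLC and blue for E12.5 PGC, and black bars for the mean and SD of 4 libraries. The kleisin share is higher in d6PGCLC, at 9.3 to 10.7% against 5.13 to 8.34%, and the STAG share is higher in E12.5 PGC, at 64.1 to 68.3% against 41.5 to 54.9%.

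The 3 counted meiotic subunits differed in the sequence before the start sites taken here, which is shown because Rec8, Stag3 and Rad21l had unlike levels in these cells. E2F6, with MGA and MAX, recruits the Polycomb complex PRC1.6 to germline promoters and is known to hold genes such as Stag3 and Smc1b silent outside the germline, through the E2F core TCCCGC and the E-box CACGTG. STRA8 and MEIOSIN, which switch on meiotic genes, bind CNCCTCAG. Promoters of the RefSeq annotation (GRCm38.p6), from 250 bases before to 50 bases after one start site of each gene, were found for 7 of the 9 subunit genes and searched for these motifs on both strands. In the following, 250 bases before and 10 bases after the start are printed in the direction of transcription, with motif matches in capitals, for Rec8 at chr14:55617916-55618175 (plus strand), Stag3 at chr5:138280259-138280518 (plus strand) and Rad21l at chr2:151668524-151668783 (minus strand).
Rec8: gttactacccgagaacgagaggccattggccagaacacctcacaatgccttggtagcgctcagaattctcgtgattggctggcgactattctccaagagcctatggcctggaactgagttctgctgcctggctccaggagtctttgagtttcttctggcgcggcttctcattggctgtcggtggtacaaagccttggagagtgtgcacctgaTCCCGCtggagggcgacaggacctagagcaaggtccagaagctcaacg
Stag3: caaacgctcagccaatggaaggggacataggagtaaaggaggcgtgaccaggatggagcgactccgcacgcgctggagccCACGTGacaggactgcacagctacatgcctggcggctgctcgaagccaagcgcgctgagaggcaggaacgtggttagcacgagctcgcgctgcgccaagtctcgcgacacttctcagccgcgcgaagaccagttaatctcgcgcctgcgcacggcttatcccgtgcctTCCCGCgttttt
Rad21l: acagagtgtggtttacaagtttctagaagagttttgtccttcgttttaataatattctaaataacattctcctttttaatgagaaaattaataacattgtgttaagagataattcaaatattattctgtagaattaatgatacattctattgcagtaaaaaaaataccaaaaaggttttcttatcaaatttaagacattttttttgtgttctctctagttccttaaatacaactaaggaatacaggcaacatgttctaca
The Rec8 window held TCCCGC beginning 38 bases before the start (position -38), and the Stag3 window held it across the start (position -2) and CACGTG at position -170. The Rad21l window held none of the 3 motifs. The start sites taken for Rec8, Stag3, Rad21l and Stag1 all lie inside the outer limits of these genes given above. The sequence before their outermost starts was thus not, or for Rec8 only in part, searched, and the matches hold for these windows alone. TCCCGC was in 6 of the 7 subunit promoters, general subunits and the uncounted Smc1b and Smc1a included. It was in 25.2% of 16539 promoters of counted genes. CACGTG was in 8.04% and CNCCTCAG in 8.44% of them, the latter in no subunit promoter. A match is a description of the letters and not of binding.

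Of 11 counted genes of the PRC1.6 complex, 5 were lower in d6PGCLC, 2 were higher and 4 did not pass, with a median log2 fold change of -0.30. The 7 called are to be read beside the 53.6% called among genes at 1 CPM or more. Yaf2 and Rybp, related subunits of the complex, had log2 fold changes of -1.20 ± 0.19 and -0.42 ± 0.11 (SE; adjusted p 2.31e-05 and 0.00333), and Wdr5 of -0.37 ± 0.09 (adjusted p 0.00337). Max, the partner of MGA, was higher at 0.53 ± 0.08 (adjusted p 3.21e-05), as was Pcgf6 at 0.24 ± 0.09 (adjusted p 0.0392). The count of higher genes was 1 with scaling to library size only, upper-quartile scaling or a length offset, without E12.5 PGC replicates 2 and 4, and when any 1 library other than d6PGCLC replicate 2 was left out. The DNA-binding E2f6 was at 13.9 ± 0.657 and 14.7 ± 2.45 CPM, with a log2 fold change of -0.09 and an adjusted p of 0.884. Mga was at 37.3 ± 11.1 and 50.1 ± 9.09 CPM (SD, n = 4), with an adjusted p of 0.0574.

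Among the genes that load, release and acetylate cohesin, 3 of 8 were called, all lower in d6PGCLC, beside the 53.6% called among genes at 1 CPM or more. Of the 5 loading and release genes, Pds5b, which binds the ring and helps both to open and to keep it closed, was lower at a log2 fold change of -0.34 ± 0.10 (adjusted p 0.0127), and 4 did not pass. The loader Nipbl was at 65.1 ± 17 and 81 ± 17.4 CPM (adjusted p 0.155). The count of lower genes among these 5 moved between 0 and 2 when single libraries were left out. Both acetyltransferases that lock cohesin on DNA were lower, Esco1 at -0.58 ± 0.11 (adjusted p 0.000219) and Esco2 at -0.27 ± 0.09 (adjusted p 0.0262), while the deacetylase Hdac8 did not pass. The count of lower genes here was 1 without d6PGCLC replicate 3 or 4 or E12.5 PGC replicate 3 or 4.

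Of the genes for the protection and cleavage of cohesin, 5 of 7 were called (53.6% of genes at 1 CPM or more). Pttg1, encoding securin, the inhibitor of separase, was at 195, 217, 171 and 173 CPM in d6PGCLC and 82.6, 87.4, 73 and 80.9 CPM in E12.5 PGC. The groups were well apart, with a log2 fold change of 1.22 ± 0.10 and an adjusted p of 3.86e-09. Espl1, encoding separase, the protease that cuts the kleisin, was at 488, 376, 432 and 405 CPM in d6PGCLC and 726, 565, 722 and 636 CPM in E12.5 PGC, with a log2 fold change of -0.64 ± 0.10 (adjusted p 2.33e-05). The inhibitor was thus higher and the protease lower in d6PGCLC, without overlap for either. Sgo2a, encoding the shugoshin that shields centromeric REC8 in meiosis I, was at 453, 401, 397 and 461 CPM in d6PGCLC and 269, 240, 243 and 260 CPM in E12.5 PGC, a log2 fold change of 0.76 ± 0.09 (adjusted p 4.26e-07). Its relative Sgo2b was also called higher, at 1.77 ± 0.44 (adjusted p 0.00235), from levels of 3.15 and 0.884 CPM. Whether reads of Sgo2a entered the count of Sgo2b was not tested. Cdca5, encoding sororin, which keeps the ring closed, was lower at -0.45 ± 0.09 (adjusted p 0.000298), and Sgo1 did not pass. Meikin, a meiosis-specific kinetochore protein, did not exceed the floor in any library. Of the 7 genes 2 were lower, 3 higher and 2 did not pass, with a median log2 fold change of 0.31 over the 6 above the floor.

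The other SMC complexes gave 2 calls upward and 1 downward among 11 genes, beside the 53.6% called among genes at 1 CPM or more. The difference from that share was not tested. Of 5 condensin genes Ncapd3 was higher at 0.27 ± 0.09 (adjusted p 0.0245), a call count that moved between 0 and 2 when single libraries were left out. Of 6 genes of the SMC5/6 complex, Smc6 was lower at -0.55 ± 0.12 (adjusted p 0.000871) and Nsmce1 higher at 0.48 ± 0.13 (adjusted p 0.00678). Ctcf, which marks the loop ends at which cohesin stops, was at 233 ± 11 and 208 ± 11.7 CPM and did not pass (adjusted p 0.179), and its germline relative Ctcfl did not exceed the floor in any library.

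General cohesin acts in dividing cells, and proliferation genes are therefore given beside it. Of 12 proliferation genes, 4 were lower in d6PGCLC, 1 was higher and 7 did not pass, with a median log2 fold change of -0.13. These counts stand beside the 53.6% called among genes at 1 CPM or more, and the difference was not tested. The replication genes Mcm3 and Mcm2 had log2 fold changes of -0.38 ± 0.08 and -0.35 ± 0.08 (adjusted p 0.0011 and 0.00157), and Mki67 of -0.35 ± 0.11 (adjusted p 0.0179). Aurkb, which acts at the centromere in mitosis, was higher at 0.69 ± 0.10 (adjusted p 8.37e-06). The part of proliferation in the values of the general subunits was not tested.

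Genes of the meiotic axis and synaptonemal complex, into which meiotic cohesin is built, were mostly lower in d6PGCLC. Of 11 genes, 10 were lower and 1 did not pass, with a median log2 fold change of -2.34 (15.4% of all genes were lower, and 53.6% of genes at 1 CPM or more were called in either direction), and the smallest change among those called was that of Syce2, at -0.29 ± 0.10 (adjusted p 0.0278). Hormad1, an axis protein that promotes pairing and recombination, was at 3.57, 7.02, 3.48 and 4.49 CPM in d6PGCLC and 74.1, 66, 82.2 and 77.7 CPM in E12.5 PGC, a log2 fold change of -4.01 ± 0.18 (adjusted p 4.69e-13). Tex12, of the central element, was at 0.236 ± 0.124 and 6.22 ± 0.366 CPM (SD, n = 4; log2 fold change -4.64 ± 0.47, adjusted p 1.69e-09), and Sycp2, of the axial element, at 0.276 ± 0.171 and 2.26 ± 1.18 CPM (-3.00 ± 0.60, adjusted p 0.00011). Sycp3, the partner of SYCP2 on the axis, had a log2 fold change of -1.73 ± 0.18 (adjusted p 8.56e-08), and Sycp1, the transverse filament, of -2.58 ± 0.23 (adjusted p 9.9e-09). Stag3, at -1.25, thus had the same direction as these axis genes and a smaller estimate than 9 of the 10 called, a difference that was not tested, whereas Rec8 had the opposite direction.

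All 4 counted genes of meiotic entry were lower in d6PGCLC, with a median log2 fold change of -1.13, beside the same shares over all genes. Stra8, the retinoic acid-induced gene that starts the meiotic programme, was at 0, 0.204, 0.664 and 0.364 CPM in d6PGCLC and 20.5, 2.74, 18.9 and 3.7 CPM in E12.5 PGC. Its log2 fold change was -5.02 ± 0.87 with an adjusted p of 3.77e-06, and the E12.5 PGC libraries were far apart. Meioc and Rbm46, encoding RNA regulators of meiotic entry, had log2 fold changes of -1.39 ± 0.28 (adjusted p 0.000363) and -0.88 ± 0.13 (adjusted p 9.8e-06).

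**Figure D4:**
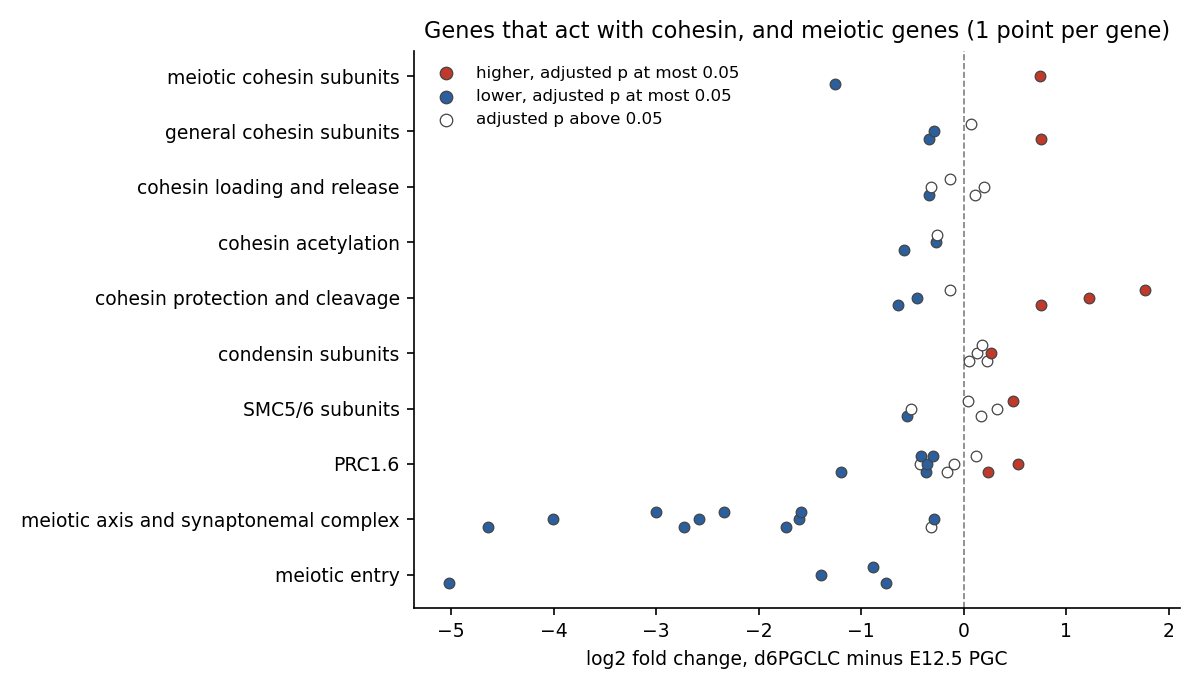
Log2 fold change of d6PGCLC minus E12.5 PGC (horizontal axis) for each gene of 10 lists, with 1 point per gene, red where higher and blue where lower at an adjusted p of at most 0.05 and open otherwise, leaving out genes at or under the floor in both groups. The axis and entry genes reach from -5.02 to -0.29, while the cohesin genes and the genes acting on them lie between -1.25 and 1.77.

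Within the E12.5 PGC group, replicates 1 and 3 were above replicates 2 and 4 in Rec8 and in a number of other genes, meiotic and general, which was seen in the values and is given as a description. Rec8 was higher in replicates 1 and 3, at 76.9 and 61.9 CPM, than in replicates 2 and 4, at 37.3 and 43.5 CPM. Sycp1 was at 37.4 and 32.3 CPM in replicates 1 and 3 and at 18.4 and 21 CPM in replicates 2 and 4, and Stra8 was split in the same way. Stag3 had the same order by a small margin, at 526 and 501 against 475 and 459 CPM. Of the 4 counted general subunits 3 had it too, with Smc3 at 882 and 802 against 635 and 733 CPM, Stag1 at 64.4 and 59.9 against 48 and 54.4 CPM and Rad21 at 1240 and 1182 against 985 and 1176 CPM, as had the loader Nipbl and Espl1, whereas Stag2 was highest in replicate 4, at 4.96 CPM. The meiotic entry genes Meioc and Ythdc2 and the cohesin gene Pds5b had this order as well. Hormad1 and Sycp3 did not share it, since Sycp3 was at 32.3, 33.5, 37.6 and 35.5 CPM in replicates 1 to 4. Neither did Sycp2, Esco1, Esco2, Cdca5, Sgo2a, Sgo2b or Pttg1. How many of all genes have this order was not counted, and nothing about kinds of genes is read from it. Replicates 2 and 4 were the libraries that stood apart by heat shock and Y-linked reads, and the part of these features in the split was not tested. In d6PGCLC, Rec8 had the same order within a narrower range, at 101 and 91.9 against 84.5 and 90.6 CPM, while Stra8 did not exceed 0.664 CPM. All 4 d6PGCLC libraries thus had almost no Stra8 and more Rec8 than any E12.5 PGC library.

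**Figure D5:**
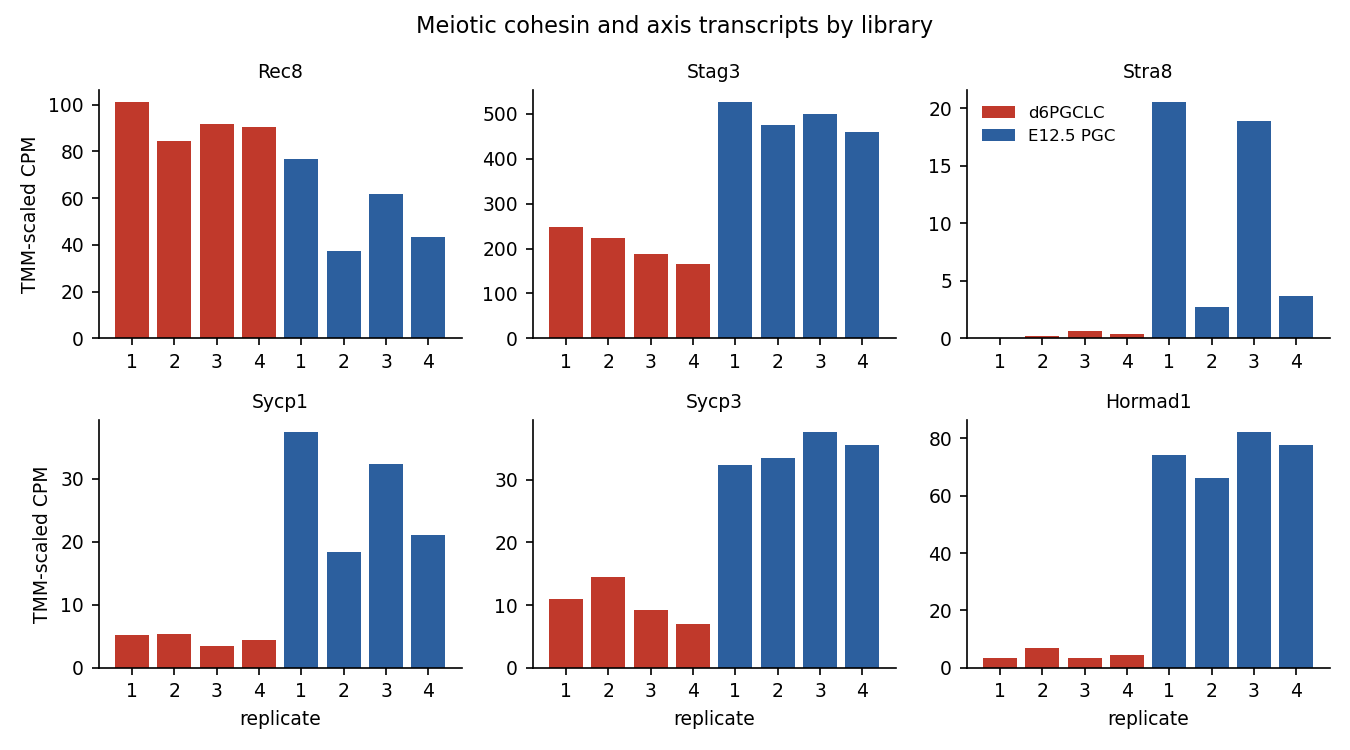
Level in each library, as CPM with TMM-scaled library sizes (vertical axes, linear, from 0), of Rec8, Stag3 and 4 other meiotic genes, with red bars for d6PGCLC and blue bars for E12.5 PGC replicates 1 to 4. Rec8, Stra8 and Sycp1 are higher in E12.5 PGC replicates 1 and 3 than in 2 and 4, whereas d6PGCLC combines 84.5 to 101 CPM of Rec8 with at most 0.664 CPM of Stra8.

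The genes nearest to Rec8 and Stag3 in profile were sought among the 9289 genes whose mean reached 5 CPM, by the root mean square difference of log2(CPM + 0.5), centred on each gene's mean, over the 8 libraries. For Rec8 they were Golm1 (0.12), Atrnl1 (0.17) and Abr (0.18). For Stag3 they were Caprin2 (0.07), Gyg (0.09) and Cpxm1 (0.10). None of these 6 genes is a cohesin subunit, and Caprin2 was at 47.9 ± 6.01 CPM in d6PGCLC and 110 ± 8.92 CPM in E12.5 PGC (SD, n = 4). Rad21l was under the level required.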

How the data were processed

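Libraries were poly(A)-selected with a stranded kit and sequenced single-end. The authors aligned reads with STAR to GRCm38 (mm10) and deposited raw counts per gene of uniquely mapped reads (mapping quality at least 255), over the exons of 1 isoform per gene chosen at random, and removed genes with overlapping promoters at random; the setting for strand was not given in the sources used here. Reads outside that isoform are thus missing, and a gene can have no counts. Gene symbols came from RefSeq for 21907 of 21950 Entrez IDs. Genes were tested with edgeR 4.0.16 in R 4.3.3: TMM scaling, no filter, cell type as the only term, quasi-likelihood test on 8 libraries, Benjamini-Hochberg adjustment over all genes, threshold 0.05. The study used the likelihood ratio test, tried here as an alternative beside DESeq2 1.42.0, other scalings, filters on low counts, a replicate block, a length offset and left-out libraries. SEs and 95% intervals are from the quasi-likelihood fit. CPM used TMM-scaled library sizes. Counts were simulated for 21950 genes, with changes placed only in genes with many reads and a spread set from the trend with level. The test called 33 of 68 genes changed by a log2 of 0.5, 63 of 64 by 1 and 68 of 68 by 2. It also called 2 of 21750 unchanged genes. The rates for changed genes thus do not cover genes with few reads, Stag2 and Rad21l among them. Of each list, genes past the threshold with the largest change, at most 3 in each direction, and genes whose role bears on a member were named. The members, lists and motifs were chosen with earlier results of these data known. A planned comparison of the subunits' proteins was not run.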

Additional observations from a re-analysis of the deposited data

Results flagged for a closer look

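The Stag3 share of STAG reads per kb in E12.5 PGC replicate 2, at 68.3%, stood apart from the other libraries of its group, of which the nearest was at 64.6%; its gap divided by the range was 0.884, above Dixon's critical value for 4 samples. This library had the lowest Stag1 and Stag2 of its group, at 48 and 3.16 CPM, and the highest Hspa1a; their part in it was not tested. Among the 17 sets of 4 libraries examined, 0.85 such flags are what chance gives.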

How the results depend on the processing

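Rec8, Stag3 and Stag2 kept their direction and their call in every alternative run: Rec8 at log2 fold changes of 0.41 to 0.80, and 0.61 to 0.95 with 1 library left out, Stag3 at -1.32 to -1.21 and -1.35 to -1.16, and Stag2 at 0.65 to 0.79 and 0.67 to 0.89. Rad21 passed in none, at -0.01 without E12.5 PGC replicates 2 and 4, a pair chosen after seeing the data, and 0.01 to 0.11 with 1 library left out. Rad21l lost its call with DESeq2 (adjusted p 0.0866), the replicate block (0.105) and without that pair (0.058), and ranged from 0.0332 to 0.088 with 1 library left out. It was removed by both filters on low counts. Smc3 missed the threshold with the likelihood ratio test (-0.29, adjusted p 0.0547) and ranged from -0.39 to -0.22 with 1 library left out, where 2 of 8 fits passed. Stag1 ranged from -0.41 to -0.27, where 3 of 8 passed, and kept its call in the other alternatives.

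Lower meiotic subunits numbered 1 in place of 2 with DESeq2, both filters, the block and without the pair, and 1 to 2 with 1 library left out. Lower general subunits numbered 1 with the likelihood ratio test and 0 to 2 with 1 library left out. Loading and release genes gave 2 lower with the block and without the pair, 0 to 2 with 1 library left out, and 1 higher with the block or a length offset. Lower acetylation genes numbered 1 without the pair and 1 to 2 with 1 library left out. Higher condensin genes numbered 0 with upper-quartile scaling, 2 with the block, 0 without the pair and 0 to 2 with 1 library left out. Higher SMC5/6 genes numbered 2 without the pair and 1 to 2 with 1 library left out. Higher PRC1.6 genes numbered 1 with library size only, upper-quartile scaling, a length offset and without the pair, and 1 to 2 with 1 library left out. The shares of raw counts were 7.1 and 4.52% for the kleisins and 79.6 and 89% for STAG, in d6PGCLC and E12.5 PGC. Of all values recomputed, 490 stayed on their side of the threshold or within their limits, 58 moved beyond them, 22 lost their call and 1 changed sign. The cause of these changes was not tested beyond fewer libraries or genes.

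Same-numbered libraries deviated together with correlations of 0.302, 0.114, -0.0382 and 0.0411. These values cannot decide whether the numbers paired the libraries, since no correlation to be found without pairing was computed. The block moved the calls over all genes from 6919 to 7270. Across all settings these calls ranged from 5782 to 7339. Depth limits Rad21l most, with 8 reads in all, and Stag2, with 259 and 159.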
